A study of Homo sapiens with 6 samples.

Results

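The genes described here are 10 core and feedback genes of the Wnt pathway (CTNNB1, APC, AXIN2, NKD1, LGR5, RNF43, ZNRF3, TCF7, ASCL2 and LEF1), measured in colorectal cancer cells depleted of PNO1. They were taken by name from a textbook view of the pathway, with earlier results of these data known. Every probe set whose single platform gene symbol is on the list was used. That gave 37 of 49293 probe sets tested, for 9 of the 10 genes. No probe set carried the symbol TCF7 alone, so TCF7 was not analysed here. HCT116 cells, an established human colorectal cancer line, received a lentivirus with a short hairpin RNA against PNO1 (sh-PNO1) or a control hairpin (sh-Ctrl), and RNA was collected 72 h later. Each group held 3 samples, each on its own Affymetrix array, and all 6 arrays were used. The labels name 1 hairpin against PNO1 and 1 control hairpin and do not say whether the replicates were separate cultures, so the tests see the variation among arrays, part of which may be technical.

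In the Wnt pathway a destruction complex built on APC and the AXIN scaffolds marks beta-catenin, the product of CTNNB1, for degradation. When Wnt binds its receptors the complex stalls, beta-catenin enters the nucleus and activates genes through the TCF and LEF factors, among them inhibitors that feed back on the pathway. HCT116 cells carry a CTNNB1 allele without a serine codon in the region that the complex marks, and a truncating mutation in RNF43, while their APC gene is intact. The arrays measure the amount of transcript and do not read these alleles, the stability of beta-catenin or its position in the cell. In bulk RNA, fewer cells of a type and less RNA per cell cannot be told apart.

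The upstream sequences of 3 genes are shown because several or all of their probe sets passed the test described below. They are the 250 bases before the first annotated start in the RefSeq promoter table (build GRCh38.p14), 5′ to 3′ on the gene's strand. For RNF43 this is chr17:58417535-58417784 (minus strand), for APC chr5:112707248-112707497 (plus strand) and for CTNNB1 chr3:41199255-41199504 (plus strand). Capitals mark the core CTTTG that TCF and LEF factors recognise, searched on both strands.
RNF43: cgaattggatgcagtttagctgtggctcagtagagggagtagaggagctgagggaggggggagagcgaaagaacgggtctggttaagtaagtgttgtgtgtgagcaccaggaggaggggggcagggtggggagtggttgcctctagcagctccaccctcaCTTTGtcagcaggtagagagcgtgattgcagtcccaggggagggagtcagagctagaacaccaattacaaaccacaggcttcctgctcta
APC: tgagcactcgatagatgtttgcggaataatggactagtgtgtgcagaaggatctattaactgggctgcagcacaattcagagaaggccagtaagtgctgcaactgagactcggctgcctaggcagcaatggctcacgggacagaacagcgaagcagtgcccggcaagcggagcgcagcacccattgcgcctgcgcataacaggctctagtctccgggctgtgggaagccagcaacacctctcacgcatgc
CTNNB1: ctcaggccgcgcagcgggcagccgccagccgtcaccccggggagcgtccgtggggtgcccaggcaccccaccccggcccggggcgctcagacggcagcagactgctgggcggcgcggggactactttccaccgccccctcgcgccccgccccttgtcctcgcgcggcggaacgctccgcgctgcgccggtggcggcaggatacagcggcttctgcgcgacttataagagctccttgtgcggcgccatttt

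The table held 8 such windows for 5 of the 10 genes (CTNNB1, APC, RNF43, LEF1 and TCF7). The longer forms searched, CTTTGAT and CTTTGAA, both contain the core. They were in 0 of the 8, against 2.26% and 3.8% of all 35116 windows of that length. Other longer forms were not searched. The core alone was in 4 of the 8, both RNF43 windows, the LEF1 window and 1 TCF7 window, against 42.1% of all windows. A match of these letters is a description of the sequence only, and enhancers outside the windows were not searched.

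The knockdown and the arrays were checked first. The 3 PNO1 probe sets kept 19.8% to 29.1% of the control signal (exact two-sided permutation p = 0.1 for each, the smallest that 3 arrays against 3 allow). The median intensity was 25.6 to 25.9 on every array. The sh-PNO1 replicate 2 array stood apart in a sign of RNA quality. Its log2 excess of the ACTB 3′ over the 5′ probe set was 2.25, and the other 5 arrays had 1.73 to 1.87. For GAPDH the same quantity was small, but all sh-PNO1 arrays (−0.077 to −0.056) were below all sh-Ctrl arrays (−0.028 to −0.013), with sh-PNO1 replicate 2 the lowest; the part of either in the results was not tested. Epithelial markers were bright for EPCAM, KRT8, KRT18 and KRT19 (group means of 1878 to 3000), while KRT20 (24.4 in sh-Ctrl) and VIL1 (4.88 in sh-Ctrl), genes of mature enterocytes, were dim. CDH1 and KRT19 rose (log2 differences 0.31 and 0.37), and the other 7 of these 9 markers did not pass on their brightest probe set. In the fit over probe sets KRT8 had 1 of 8 higher and KRT18 1 of 2 lower. The 11 measured markers of leukocytes, endothelium and fibroblasts had means between 3.57 and 36.6 on the brightest probe set of each. On these 0 of the 11 passed in limma (3 at an unadjusted p under 0.05), against 34.1% of all genes. In the fit over probe sets VWF, COL1A1 and COL3A1 each had 1 of 5 probe sets higher. The summed level of the 11 markers was 134 to 139 on the sh-Ctrl arrays and 141 to 146 on the sh-PNO1 arrays. Its part in the results below was not tested.

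Among the 9 measured Wnt genes, the data show small and divided changes. APC rose on all of its probe sets, NKD1 rose strongly on 1 and less on another of its 4, RNF43 fell on 3 of 6, and CTNNB1 fell on 6 of 8 but not on the brightest. No probe set of AXIN2, LGR5, ZNRF3, ASCL2 or LEF1 passed. In all, 14 of the 37 probe sets (37.8%) passed an adjusted p of 0.05 in limma, 5 higher and 9 lower in sh-PNO1, where 28% of all probe sets tested passed, 14.8% higher and 13.2% lower. The groups did not overlap in 16 of the 37 (43.2%), against 40.2% of all probe sets. These 14 came from 4 genes, and 6 of them from CTNNB1, so they are not 14 independent counts. With the brightest probe set standing for each gene, 2 of 9 genes passed, APC and NKD1, against 34.1% of all genes tested. The median log2 difference over the 37 probe sets was 0.01, as it was over all probe sets (0.01), and the median size was 0.12 against 0.10. When the sh-PNO1 replicate 2 array was left out, 13 of the 37 passed (35.1%, against 24.1% of all probe sets).

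**Figure D1:**
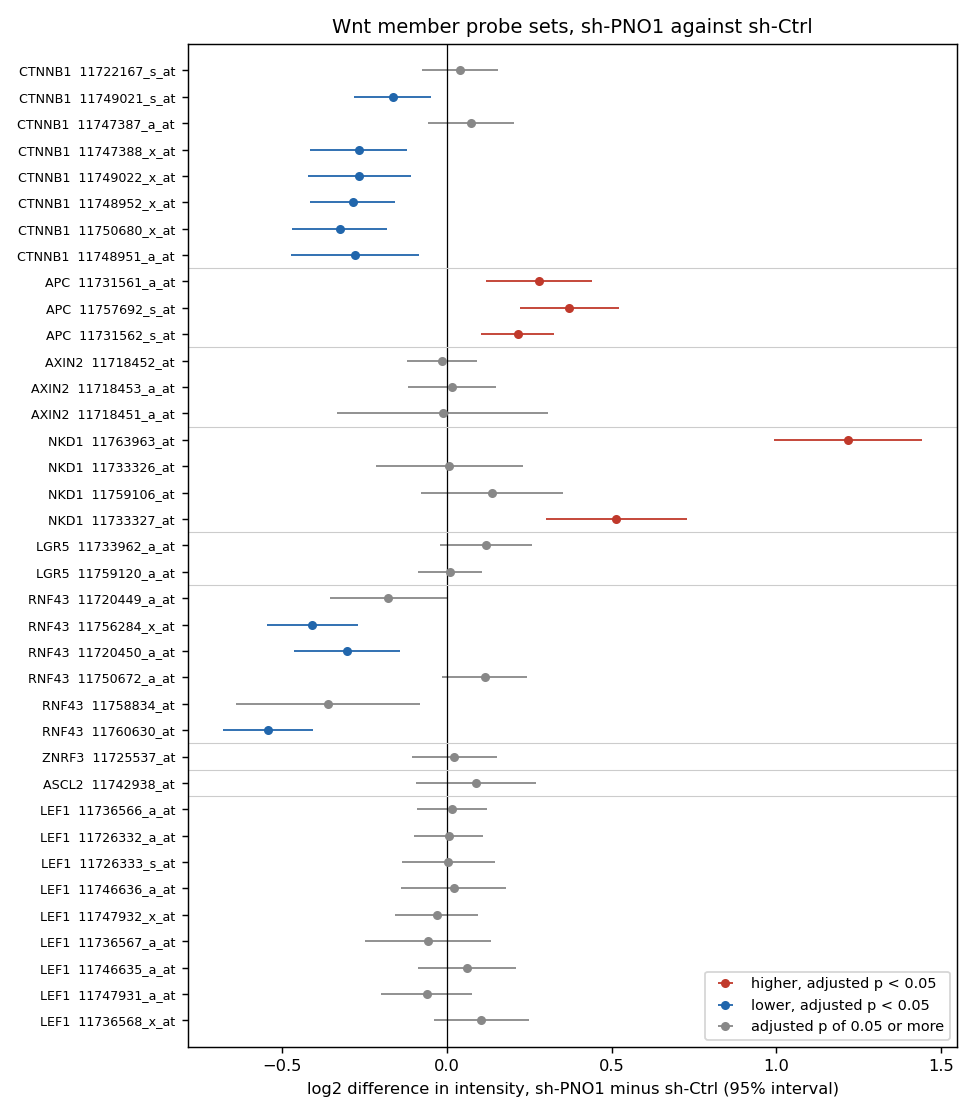
Log2 difference in intensity, sh-PNO1 minus sh-Ctrl, for each of the 37 probe sets, ordered by gene and brightness; points are limma estimates from 3 against 3 arrays, bars are 95% intervals, red and blue mark probe sets higher or lower at an adjusted p under 0.05. NKD1 11763963_at stands far to the right at 1.22, the 3 APC probe sets lie right of 0, and most CTNNB1 and RNF43 probe sets lie left of 0.

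CTNNB1 was the brightest of the 9 genes on the array. Its probe set 11722167_s_at, brighter than 98.6% of all probe sets and above all 23 background probe sets, read 1562, 1622 and 1530 in sh-Ctrl and 1686, 1617 and 1545 in sh-PNO1. The groups overlapped, and the log2 difference was 0.04 ± 0.05 SE with a 95% interval of −0.08 to 0.16 (limma adjusted p = 0.606). Probe set 11747387_a_at also did not pass (0.07 ± 0.06 SE, adjusted p = 0.383).

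The other 6 CTNNB1 probe sets fell, by 0.16 to 0.32 on the log2 scale, and in each the 3 sh-PNO1 arrays lay below the 3 sh-Ctrl arrays. The furthest, 11750680_x_at, read 155, 163 and 151 in sh-Ctrl and 126, 116 and 133 in sh-PNO1 (log2 difference −0.32 ± 0.06 SE, adjusted p = 0.00556). Next came 11748952_x_at, with 170, 170 and 164 in sh-Ctrl and 143, 128 and 142 in sh-PNO1 (−0.29 ± 0.06 SE, adjusted p = 0.00592). These 2 probe sets passed whichever single array was left out. The brightest of the 6, 11749021_s_at, read 732, 721 and 712 in sh-Ctrl and 656, 607 and 671 in sh-PNO1 (−0.16 ± 0.05 SE, adjusted p = 0.045).

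The lowest array was sh-PNO1 replicate 2 in all 6 of the CTNNB1 probe sets that fell, the array that also stood apart in the ACTB probe sets. Without it 11749021_s_at changed to −0.12 (adjusted p = 0.108) and 11748951_a_at from −0.28 to −0.18 (adjusted p = 0.064), so that neither passed, while the other 4 passed. The calls of 4 of the 6 also failed without other arrays. 11748951_a_at passed in 0 of the 6 fits that left out an array (adjusted p of 0.0519 to 0.142), 11749021_s_at in 1, without sh-PNO1 replicate 3, and 11747388_x_at and 11749022_x_at in 3 each. 11747388_x_at failed without sh-Ctrl replicate 1 or 2 or sh-PNO1 replicate 1 (adjusted p up to 0.0623). 11749022_x_at failed without any 1 of the sh-Ctrl arrays (up to 0.0711).

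The CTNNB1 probe sets thus differed among themselves. The 8 derive from 5 source sequences in the platform table, and 11747387_a_at and 11747388_x_at, which share 1 of these, stood at 0.07 and −0.27. Within each array, 11750680_x_at minus 11722167_s_at was −3.34, −3.31 and −3.34 in sh-Ctrl and −3.74, −3.80 and −3.53 in sh-PNO1 on the log2 scale. The separation between that pair grew by 0.36 in sh-PNO1 (exact two-sided permutation p = 0.1, the smallest possible). The pair was chosen after its values were seen. Of the 6 probe sets that fell, 5 have the suffix _x_at or _s_at, which marks probes that may also match sequences of other genes. The other is 11748951_a_at. The brightest probe set, 11722167_s_at, which did not pass, carries such a suffix too. With the probe sets of a gene averaged, CTNNB1 changed by −0.18 (adjusted p = 0.0204), and by −0.32 with the most variable one standing for the gene (adjusted p = 0.00423).

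APC, the scaffold that holds beta-catenin in the destruction complex, was dim but rose on 3 of 3 probe sets. 11731561_a_at read 20.2, 21.4 and 20.2 in sh-Ctrl and 24.4, 23.2 and 27.7 in sh-PNO1 (log2 difference 0.28 ± 0.07 SE, limma adjusted p = 0.0183). 11757692_s_at read 15.4, 17.8 and 18.0 in sh-Ctrl and 21.9, 22.2 and 21.9 in sh-PNO1 (0.37 ± 0.06 SE, adjusted p = 0.00353). 11731562_s_at read 14.4, 14.7 and 15.7 in sh-Ctrl and 17.2, 17.4 and 17.3 in sh-PNO1 (0.22 ± 0.05 SE, adjusted p = 0.0112). Every sh-PNO1 array was above every sh-Ctrl array in each of them. The last pair passed with any single array left out. The first did not pass without sh-Ctrl replicate 1 (adjusted p = 0.0692) or sh-Ctrl replicate 3 (0.0705). All 3 lay below the median intensity of the arrays, brighter than 39.4% to 47.2% of probe sets.

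RNF43 and ZNRF3 are membrane ubiquitin ligases that remove Wnt receptors from the cell surface, and RNF43 is a feedback gene induced by the pathway in the intestine. RNF43 fell on 3 of its 6 probe sets. 11756284_x_at read 89.9, 94.8 and 88.3 in sh-Ctrl and 63.6, 71.6 and 70.8 in sh-PNO1 (log2 difference −0.41 ± 0.06 SE, limma adjusted p = 0.00142). 11720450_a_at read 73.6, 73.7 and 72.2 in sh-Ctrl and 58.1, 54.5 and 65.8 in sh-PNO1 (−0.30 ± 0.07 SE, adjusted p = 0.0128). 11760630_at, the dimmest, read 17.4, 15.9 and 18.2 in sh-Ctrl and 11.4, 12.0 and 12.0 in sh-PNO1 (−0.54 ± 0.06 SE, adjusted p = 0.000339). No sh-PNO1 array reached the lowest sh-Ctrl array in these.

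Groups did not overlap in 40.2% of all probe sets (18.3% lower in sh-PNO1), while 28% passed the test. In 2 further RNF43 probe sets the groups did not overlap although the test was not passed. The brightest of the gene, 11720449_a_at, read 86.4, 87.3 and 103 in sh-Ctrl and 77.0, 83.6 and 83.7 in sh-PNO1 (−0.18 ± 0.08 SE, adjusted p = 0.13). 11758834_at read 25.5, 24.9 and 26.0 in sh-Ctrl and 22.6, 15.9 and 21.6 in sh-PNO1 (−0.36 ± 0.12 SE, adjusted p = 0.0595). The low value of that probe set was again on sh-PNO1 replicate 2. Without that array its log2 difference was −0.20 and it passed (adjusted p = 0.0296), as it did without sh-PNO1 replicate 1 (−0.46, adjusted p = 0.0481). The sixth, 11750672_a_at, lay on the other side of 0 with overlapping groups (0.12 ± 0.06 SE, adjusted p = 0.174). 11720450_a_at did not pass without sh-Ctrl replicate 2 (adjusted p = 0.0517) or sh-PNO1 replicate 1 (0.054). With its probe sets averaged RNF43 changed by −0.28 (adjusted p = 0.00106).

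**Figure D2:**
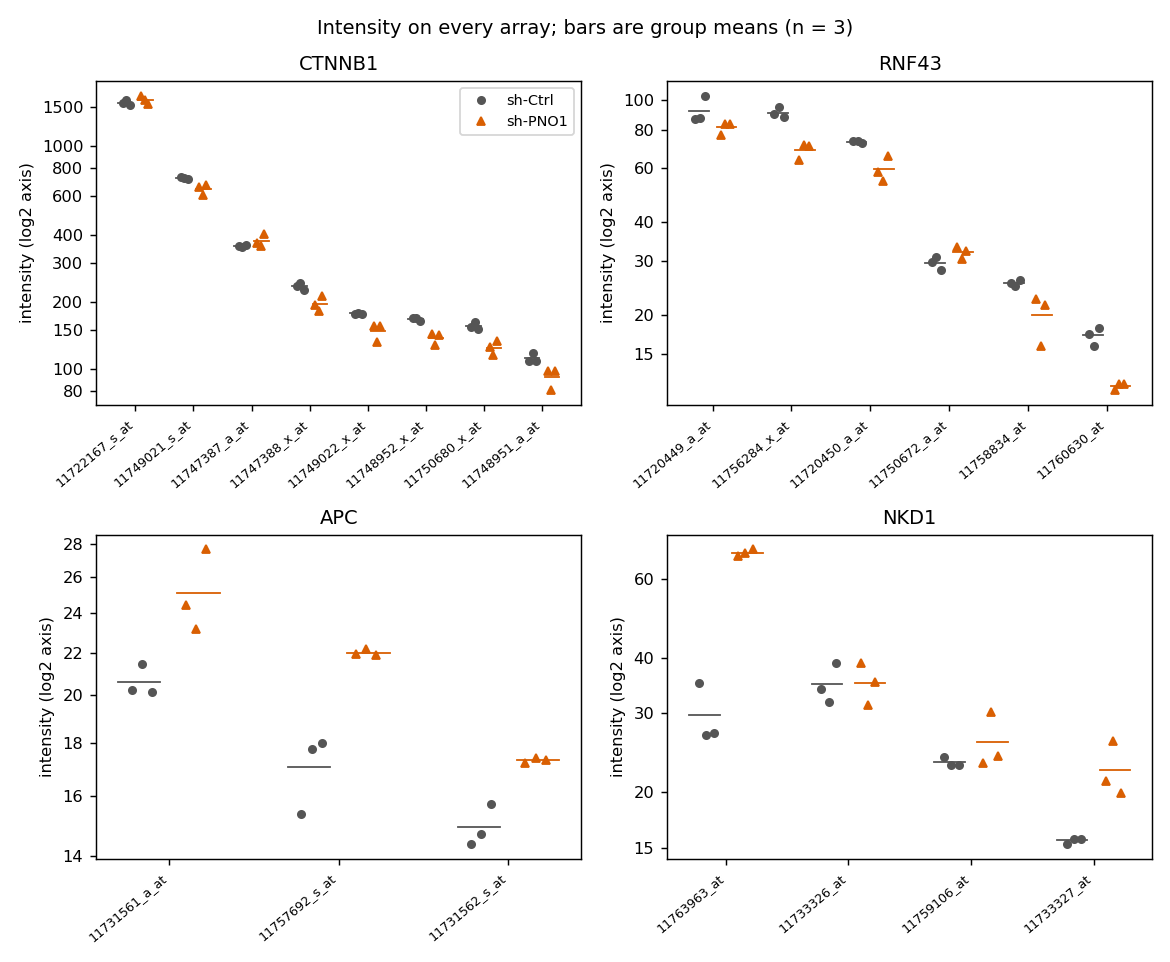
Intensity on a log2 axis for every probe set of CTNNB1, RNF43, APC and NKD1; grey circles are the 3 sh-Ctrl arrays, orange triangles the 3 sh-PNO1 arrays, and bars the group means. The brightest CTNNB1 probe set overlaps between groups while 6 dimmer ones lie lower in sh-PNO1, all 3 APC probe sets lie higher, and for NKD1 only 11763963_at and 11733327_at separate upward.

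ZNRF3, the close relative of RNF43, has 1 probe set, 11725537_at. It read 28.4, 28.4 and 27.0 in sh-Ctrl and 26.7, 28.4 and 30.1 in sh-PNO1, with overlapping groups (log2 difference 0.02 ± 0.06 SE, 95% interval −0.11 to 0.15). LGR5, a receptor for R-spondins that marks intestinal stem cells and restrains these ligases, was read by 2 probe sets. Its brighter one, 11733962_a_at, read 24.3, 26.3 and 23.6 in sh-Ctrl and 25.6, 28.4 and 26.6 in sh-PNO1 (0.12 ± 0.06 SE, 95% interval −0.02 to 0.26, adjusted p = 0.192). The groups overlapped by 1 array of each. The other LGR5 probe set was among the dimmest 3.77% of the array, at 3.82 in sh-Ctrl and 3.85 in sh-PNO1.

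NKD1, which binds Dishevelled and dampens the pathway, gave the largest difference of the 37 probe sets. 11763963_at read 35.0, 26.9 and 27.2 in sh-Ctrl and 67.5, 68.4 and 69.8 in sh-PNO1, a rise of 1.22 ± 0.10 SE on the log2 scale (2.33-fold, limma adjusted p = 6.97e-05). Among all probe sets 0.911% passed with a change of at least 2-fold, and among the 37 it was this 1. With 16 added before the logarithm it stood at 0.89, under 2-fold, and dimmer probe sets shrank further though they still passed: NKD1 11733327_at to 0.28, RNF43 11760630_at to −0.26, and the 3 of APC to 0.17, 0.20 and 0.11. 11733327_at read 15.3, 15.7 and 15.7 in sh-Ctrl and 21.2, 26.1 and 19.9 in sh-PNO1 (0.51 ± 0.09 SE, adjusted p = 0.00408). Both passed with any single array left out, at 1.15 to 1.34 and 0.40 to 0.59.

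The other NKD1 probe sets did not follow. 11733326_at read 34.1, 31.8 and 38.9 in sh-Ctrl and 38.9, 31.4 and 35.2 in sh-PNO1, with the groups fully overlapping (0.01 ± 0.10 SE, 95% interval −0.21 to 0.23). For 11759106_at the values were 24.0, 23.0 and 23.0 in sh-Ctrl and 23.3, 30.2 and 24.1 in sh-PNO1 (0.14 ± 0.09 SE, adjusted p = 0.324). Only the sh-PNO1 replicate 2 value lay well above the rest there. The difference of 11763963_at to 11733326_at within an array was 0.04, −0.24 and −0.52 in sh-Ctrl and 0.80, 1.13 and 0.99 in sh-PNO1 on the log2 scale, so the groups did not overlap (shift 1.21, exact two-sided permutation p = 0.1, the smallest possible). That pair too was chosen after its values were seen. The rise of NKD1 is therefore a rise of 2 of its 4 probe sets, and the platform table does not say which transcript or part of the gene each reads.

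AXIN2, a scaffold of the destruction complex and the usual readout of beta-catenin activity, differed by less than the spread between arrays. Its brightest probe set, 11718452_at, read 25.3, 23.9 and 25.2 in sh-Ctrl and 23.9, 24.9 and 24.9 in sh-PNO1 (log2 difference −0.01 ± 0.05 SE, 95% interval −0.12 to 0.09). The other AXIN2 probe sets were dimmer, with sh-Ctrl means of 7.69 and 5.27, and stood at 0.02 and −0.01. Their intervals were wider, −0.12 to 0.15 and −0.33 to 0.31.

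The last members act in the nucleus. LEF1, a transcription factor that pairs with beta-catenin, has 9 probe sets, all dim: their means over the 6 arrays ran from 3.51 to 9.05, within the dimmest 25.2% of the array. The brightest, 11736566_a_at, read 8.75, 9.12 and 9.12 in sh-Ctrl and 8.80, 9.39 and 9.12 in sh-PNO1 (0.02 ± 0.05 SE). Across the 9 the log2 differences ran from −0.06 to 0.11 and every pair of groups overlapped. ASCL2, a transcription factor of intestinal stem cells induced by the pathway, has 1 probe set, 11742938_at, which read 15.9, 16.8 and 17.4 in sh-Ctrl and 20.0, 16.8 and 16.6 in sh-PNO1 (0.09 ± 0.08 SE, 95% interval −0.09 to 0.27). A single array, sh-PNO1 replicate 1, was higher than the rest.

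Over AXIN2, LGR5, ZNRF3, ASCL2 and LEF1, 0 of 16 probe sets passed in limma, against 28% of all probe sets tested. Of the 16, 0 had an unadjusted p under 0.05, and that share over all probe sets was not computed. LEF1 alone gave 9 of the 16, all dim, so they are not 16 independent counts. Identical values between arrays were common among the members. In 19 of the 37 member probe sets at least 2 arrays shared a value to the last decimal. Most of the 19 belonged to AXIN2, LGR5, ZNRF3, ASCL2 or LEF1, and LEF1 11726333_s_at read 7.15 on 4 arrays. The 23 background probe sets of the array had means of 2.53 to 773, rising with GC content, so that dim members could not be judged present or absent.

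**Figure D3:**
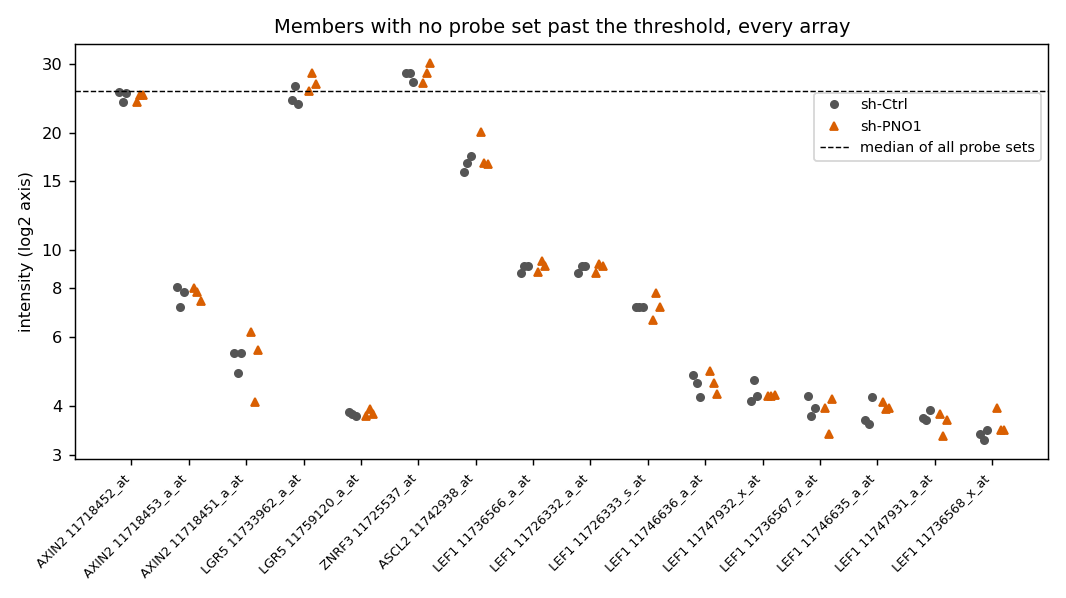
Intensity on a log2 axis for the 16 probe sets of AXIN2, LGR5, ZNRF3, ASCL2 and LEF1; grey circles are sh-Ctrl arrays, orange triangles sh-PNO1 arrays, and the dashed line the median of all probe sets (25.6). The groups overlap at every probe set, and all LEF1 probe sets lie well below the line.

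The rest of the pathway was described with 7 lists from textbook knowledge, also chosen with earlier results of these data known. The brightest probe set stood for each gene. Of 128 genes measured, 29 rose and 13 fell, 32.8% in all, close to the 34.1% of all genes tested, of which 20% rose and 14.2% fell. The median log2 difference was 0.03, as over all genes (0.03). Among ligands and the factors that secrete them, 3 of 23 rose and none fell (13%, against 34.1% of all genes). They were WLS, which carries Wnt proteins to the surface (66.9 ± 0.93 to 81.5 ± 1.78, mean ± SD, n = 3 per group; log2 difference 0.29), WNT16 (0.32) and WNT7B (0.30). In the fit over probe sets 1 of 4 was higher for WLS, with the lowest at 0.05, 1 of 2 for WNT16 and 1 of 4 for WNT7B. With probe sets averaged neither WNT16 (adjusted p = 0.0698) nor WNT7B (0.06, adjusted p = 0.353) passed.

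Receptors went in both directions, with 4 of 17 higher and 2 lower (35.3% in all, against 34.1% of all genes). The Wnt receptor FZD6 rose on both of its probe sets, from 272 ± 8.38 to 351 ± 17.2 (0.37 ± 0.05 SE, adjusted p = 0.000833), and FZD3 rose by 0.38. LRP5, a co-receptor, changed from 35.8 ± 2.46 to 22.8 ± 3.21 (−0.66 ± 0.10 SE, adjusted p = 0.0014) on its only probe set. The orphan-receptor kinase ROR1 rose by 0.21 but stood at −0.11 (adjusted p = 0.215) with the _x_at and _s_at probe sets left out, and there FZD3 did not pass (0.26, adjusted p = 0.0512). FZD3 also failed without sh-Ctrl replicate 2 (adjusted p = 0.0528) or sh-PNO1 replicate 1 (0.0577).

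Secreted and membrane antagonists held the brightest gene of the wider lists. DKK1, which blocks the LRP co-receptors, rose from 2972 ± 24.4 to 3909 ± 142 (0.39 ± 0.04 SE, adjusted p = 0.000239). NKD2, the relative of NKD1, rose from 18.1 ± 0.39 to 24.6 ± 1.64 (0.44 ± 0.06 SE, limma adjusted p = 0.000544), and FRZB, a decoy receptor, by 0.21. DKK1, NKD2 and FRZB have 1 probe set each. SFRP4, another decoy, was very dim (4.43 in sh-PNO1) and changed by −0.18 (adjusted p = 0.0435). It stood at −0.02 with its 3 probe sets averaged (adjusted p = 0.716) and at −0.04 with 16 added before the logarithm (adjusted p = 0.219), and 0 of the 3 passed in the fit over probe sets. FRZB did not pass without sh-Ctrl replicate 1, sh-PNO1 replicate 2 or sh-PNO1 replicate 3 (adjusted p of 0.0566 to 0.0657), nor SFRP4 without sh-Ctrl replicate 1 or 2 or sh-PNO1 replicate 1 or 3 (0.104 to 0.137). In this list 3 of 15 genes rose and 1 fell (26.7% in all, against 34.1% of all genes).

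Of 21 genes of the destruction complex and cytoplasmic relay, 9 rose and 2 fell, 52.4% against 34.1% of all genes, with a median of 0.12. DVL3 counted as fallen, but in the fit over probe sets 2 of its 4 were higher and 0 lower. CSNK1G2 counted as risen, with 0 of 4 probe sets passing there. Without any 1 of the sh-Ctrl arrays 7 of the 21 passed (33.3%, against 28.2% to 28.8% of all genes), APC2, CSNK1A1, CSNK1G2 and DVL3 failing each time. At an adjusted p under 0.01 there were 6 (28.6% against 23.1%). Without 1 sh-PNO1 array the share was 38.1% to 47.6%, against 29.9% to 30.6%. It was 71.4% with probe sets averaged (33.7% of all genes) and 61.9% with the most variable one (39.8%). With 16 added before the logarithm it was 66.7% (35.5%), and with the replicate number as a block 38.1% (32.3%). CSNK1G1, a casein kinase 1 isoform, rose from 129 ± 5.72 to 218 ± 6.41 (0.75 ± 0.05 SE, adjusted p = 1.96e-05) with 4 of 4 probe sets higher. GSK3A, a kinase that phosphorylates beta-catenin, rose from 523 ± 14.7 to 701 ± 6.62 (0.42 ± 0.04 SE, adjusted p = 0.000134) with 3 of 3 higher. TNKS, the tankyrase that turns over AXIN, rose by 0.32 and CSNK1D by 0.23, each with 2 probe sets higher of 4 and of 5. GSK3B stood at 0.005 (adjusted p = 0.943) on its brighter probe set, but its other probe set rose (0.28), and their average passed (0.14, adjusted p = 0.0164). AXIN1, the scaffold that AXIN2 resembles, stood at 0.11 (adjusted p = 0.216).

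Nuclear partners of beta-catenin gave 4 higher and 1 lower of 18 (27.8% in all, against 34.1% of all genes). The co-repressor TLE3 rose by 0.32 on its brightest of 2 probe sets, both higher, and SMARCA4, a chromatin remodeller, by 0.26 with 3 of 6 higher. TCF7L2, the main TCF of the colon, rose from 996 ± 11.8 to 1190 ± 32.4 (0.26 ± 0.04 SE, adjusted p = 0.0016) on its brightest probe set. Its 7 probe sets again disagreed, with 2 higher, 1 lower and a range of −0.38 to 0.26, and their average did not pass (0.03, adjusted p = 0.593). The co-repressor CTBP2 changed by −0.21, with 6 of 7 probe sets lower, but with the _x_at and _s_at probe sets left out the gene stood at −0.03 (adjusted p = 0.598).

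Of 23 target genes outside the 10, 5 rose and 4 fell. That was 39.1% in all, against 34.1% of all genes (20% higher and 14.2% lower). CCND1, cyclin D1, fell on 4 of 4 probe sets, from 1468 ± 22.9 to 1119 ± 14.4 (−0.39 ± 0.04 SE, adjusted p = 0.000145). ID2, an inhibitor of helix-loop-helix factors, changed from 832 ± 37.6 to 578 ± 7.79 (−0.52 ± 0.05 SE, adjusted p = 8.87e-05) with both probe sets lower. In the other direction MSX1, a homeobox factor, rose from 280 ± 20.8 to 480 ± 39.6 (0.78 ± 0.08 SE, limma adjusted p = 0.000164). BMP4, a growth factor, rose from 287 ± 14.2 to 428 ± 28.2 (0.58 ± 0.06 SE, adjusted p = 0.000239). MSX1 and BMP4 have 1 probe set each. MYC read 1465 ± 42.8 in sh-Ctrl and 1588 ± 63.1 in sh-PNO1 and did not pass (0.12 ± 0.05 SE, adjusted p = 0.0965). It passed when the prior followed a mean-variance trend robustly (adjusted p = 0.0184) and with 16 added before the logarithm (0.0492).

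Among crypt stem cell genes 3 of 11 fell and 1 rose (36.4% in all, against 34.1% of all genes). CDCA7 changed from 664 ± 37.2 to 414 ± 37.1 (−0.68 ± 0.07 SE, adjusted p = 0.000225) with both probe sets lower, and RNF32 by −0.35. LRIG1, an inhibitor of receptor tyrosine kinases, changed by −0.44 (adjusted p = 0.032), and the ion transporter SLC12A2 rose by 0.16 (adjusted p = 0.045). With probe sets averaged neither RNF32 (−0.19, adjusted p = 0.0628) nor LRIG1 (−0.16, adjusted p = 0.157) passed, and the other LRIG1 probe set stood at 0.12. LRIG1 failed without sh-Ctrl replicate 1 or 2 or sh-PNO1 replicate 1 or 2 (adjusted p of 0.0585 to 0.125), and SLC12A2 without any single array (0.0518 to 0.137).

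**Figure D4:**
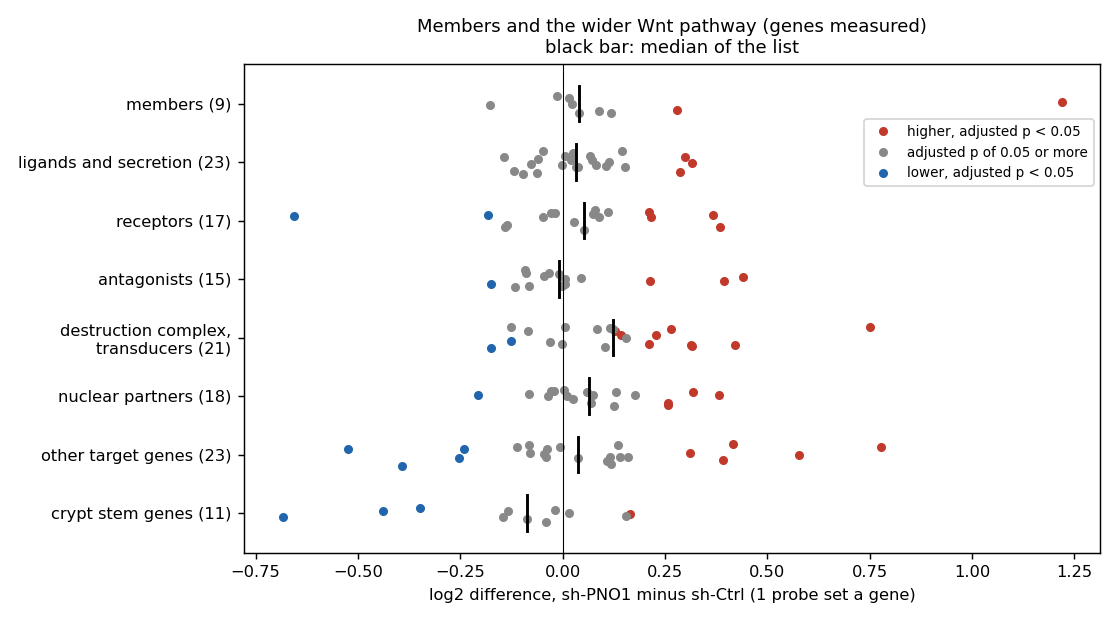
Log2 difference, sh-PNO1 minus sh-Ctrl, for each measured gene of the 10 members and of the 7 wider pathway lists, 1 probe set a gene; red and blue mark genes higher or lower at a limma adjusted p under 0.05, and black bars the median of a list. Most points lie within 0.5 of 0, called genes lie on both sides in most lists, and NKD1 lies furthest out at 1.22.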

How the data were processed

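Per the labels' protocols, 100 ng of total RNA per sample became biotin-labelled cRNA. The deposited values are linear intensities, 1 for each of 49395 probe sets and 6 arrays, normalised by the authors with RMA (no version given), per the submitters' processing notes; how background was handled, and against which genome build probe sets were annotated, is not given in the sources used here. Such normalisation removes any overall shift in messenger RNA. Log2 was taken here, 102 control probe sets were left out, and all others were fitted in limma 3.58.1 (R 4.3.3; lmFit, eBayes, no covariate, Benjamini-Hochberg over 49293 probe sets). A second fit used 18132 genes, each by its brightest 1-symbol probe set, named through the platform table (44988 probe sets with 1 symbol, 1832 with several, 2473 with none; 0 symbols changed against GRCh38.p14). Groups came from sample titles. Named were all members, PNO1, up to 4 passing genes per list by adjusted p, and MYC, CCND1, TCF7L2, AXIN1 and GSK3B. Members, lists and alternatives were chosen with earlier results of these data known. The limma fit was tested on simulated probe sets. Promoter windows came from RefSeq.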

Additional observations from a re-analysis of the deposited data

How the results depend on the processing

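The number of arrays and the dimness of most members limit these results. No pairing by replicate number was visible: deviations of same-numbered arrays correlated at −0.04, 0.10 and −0.03. Not every array correlated best with its own number. Whether same-numbered samples were handled together cannot be told from 3 arrays a group. With the replicate number as a block 13 of the 37 member probe sets (35.1%, against 26.3% of all) passed in limma. CTNNB1 11749021_s_at (adjusted p = 0.072) and 11748951_a_at (0.0672) no longer passed, and RNF43 11758834_at did in addition (0.0337). In that fit 2 member genes and 39 pathway genes passed, against 32.3% of all genes. With the _x_at and _s_at probe sets left out, 6 of the 25 remaining member probe sets (24%) and 8711 of all 34921 (24.9%) passed. At an adjusted p under 0.01, 7 member probe sets (18.9%), 8666 of all (17.6%) and 1 member gene (NKD1) passed. Of all genes 23.1% passed at that threshold. With probe sets averaged, or with the most variable one, 4 of 9 member genes passed, against 33.7% and 39.8% of all genes. Leaving out 1 array gave 9 to 13 member probe sets (24.3% to 35.1%, against 22% to 24.1% of all), with 9 lacking sh-Ctrl replicate 1 or 2. Of all probe sets 10834 to 11888 passed in these fits. They gave 1 to 2 member genes and 33 to 39 pathway genes, against 28.2% to 30.6% of all genes. Only 1 member gene passed, without APC, when sh-Ctrl replicate 1 or 3 was left out. The log2 difference of PNO1 ranged from −2.35 to −2.17 on its brightest probe set and was −1.97 with its probe sets averaged. Values that changed sign and were called in either fit were, with probe sets averaged, CTNNB1 −0.18, DVL3 0.061, BTRC 0.15 and EDN1 0.10. With the most variable probe set they were CTNNB1 −0.32, DKK3 0.29, DVL3 0.21, TCF7L1 0.36, EDN1 0.25 and OLFM4 −0.20, and without the suffixes ROR1 −0.11. Repeated quantile normalisation, equal medians, array weights, the trend with robust prior and an offset of 16 gave 14 or 15 of the 37 member probe sets (37.8% or 40.5%), against 27.9% to 30.6% of all; with the dimmest 30% left out, 15 of the 25 remaining members passed (60%), against 41.4% of 34505. The cause of these differences was not tested.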
